A study of Mus musculus with 12 samples.

Results

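The oxidative phosphorylation genes described here are the rows of a liver mRNA count table whose symbols name subunits of the respiratory chain and of ATP synthase. They were taken by symbol alone: Nduf followed by a, b, c, s or v and a digit, Uqcr, the Cox families from Cox4 to Cox8, Atp5, the mitochondrially encoded mt-Nd, mt-Co, mt-Cytb and mt-Atp genes, and Sdha, Sdhb, Sdhc and Sdhd. No expression value entered the symbol rule, but the set was chosen with earlier results of these data known. The rule found 98 of the 25540 rows, of which 85 are nuclear genes and 13 are the protein-coding genes of the mitochondrial genome. The symbols bear out the label with a few exceptions. Atp5s and Atp5sl are named after ATP synthase and are not among its core subunits, Cox7a2l is a factor of respiratory supercomplexes, and Atp5l-ps1 is a pseudogene. Ndufa4 and Ndufa4l2 carry complex I names and are placed here with complex IV, to which the Ndufa4 protein is now assigned.

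Each cell keeps its instructions for oxidative phosphorylation in 2 genomes. Complexes I, III and IV pump protons across the inner mitochondrial membrane while electrons pass from NADH through coenzyme Q and cytochrome c to oxygen, complex II feeds in electrons from succinate, and complex V uses the proton gradient to make ATP. The mitochondrial genome codes for the most hydrophobic subunits of complexes I, III, IV and V, and nuclear genes code for all of complex II and for every other subunit. Hepatocytes are rich in mitochondria, and they use this ATP for gluconeogenesis, urea synthesis and bile acid synthesis.

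The data are liver libraries of BALB/c mice from 4 groups with 3 libraries in each. All mice had been injected with preparations that the labels call iExos, in a series whose title names exosomes, STAT3 and liver fibrosis. The control preparations were labelled siCntrl and mASO Scrbl, and the experimental ones siSTAT3 and mASO STAT3. The sources used here do not give sex, age, dose, time after injection or any liver injury, and no uninjected liver was analysed here. The siRNA arm means siSTAT3 against siCntrl, and the mASO arm means mASO STAT3 against mASO Scrbl. No library belongs to both arms.

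Library totals ran from 39844158 to 67791159 counts. Stat3 itself does not check the labels: it lay between 91.5 and 122 CPM (a count scaled by library size) in siSTAT3 and between 106 and 121 in siCntrl (log2 fold change −0.03 ± 0.14 SE, edgeR adjusted p = 0.868), and between 88.2 and 115 CPM in mASO STAT3 with 89.96 to 106 CPM in its Scrbl control (0.05 ± 0.14, edgeR adjusted p = 0.792). CPM values use the library total multiplied by edgeR's TMM factor, a correction for composition. That factor was 1.11 to 1.27 for control libraries and 0.804 to 0.901 for those labelled STAT3. With that factor left out, the typical (median) gene stood at −0.53 (log2, siRNA arm) and −0.63 (mASO arm), and Stat3 stood at −0.54 (edgeR adjusted p = 0.00446) and −0.53 (0.00413). Changes are therefore given relative to the TMM level, and the shares of the library below do not use the factor. Nothing in the labels says that the 3 libraries of a group are separate animals, and every p-value then reflects only the spread of these samples, possibly a technical one. A gene was called where edgeR's quasi-likelihood test gave a Benjamini-Hochberg adjusted p under 0.05 over the 15720 genes tested. Of the 98 genes 94 were tested, and Cox7b2, Cox8b, Atp5l2 and Atp5l-ps1, with at most 20 counts in any library, were removed by the filter on low counts.

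Livers labelled STAT3 held more of the nuclear oxidative phosphorylation mRNAs in both arms. As a share of all gene counts, the 85 nuclear genes together made up 1.33, 1.34 and 1.43% of the siCntrl libraries and 1.86, 2.06 and 1.77% of the siSTAT3 libraries. They made up 1.59, 1.54 and 1.52% of mASO Scrbl and 2.03, 1.82 and 1.95% of mASO STAT3. In both arms every library labelled STAT3 lay above every control library. Each mASO Scrbl library also lay above all siCntrl libraries. The 13 mitochondrial genes took a larger share, 5.36, 4.19 and 3.88% in siCntrl and 5.52, 4.19 and 5.42% in siSTAT3. Their share was 4.43, 4.44 and 5.49% in mASO Scrbl and 4.29, 3.85 and 4.21% in mASO STAT3. Of the 13, 6 had 0 to 449 counts per library, so these shares come almost wholly from the other 7. The mitochondrial shares of the groups overlapped in the siRNA arm, and in the mASO arm all 3 mASO STAT3 libraries lay below all 3 mASO Scrbl libraries. These are sums over genes and carry no test. In bulk tissue, fewer cells of a type and less RNA per cell cannot be told apart.

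**Figure D1:**
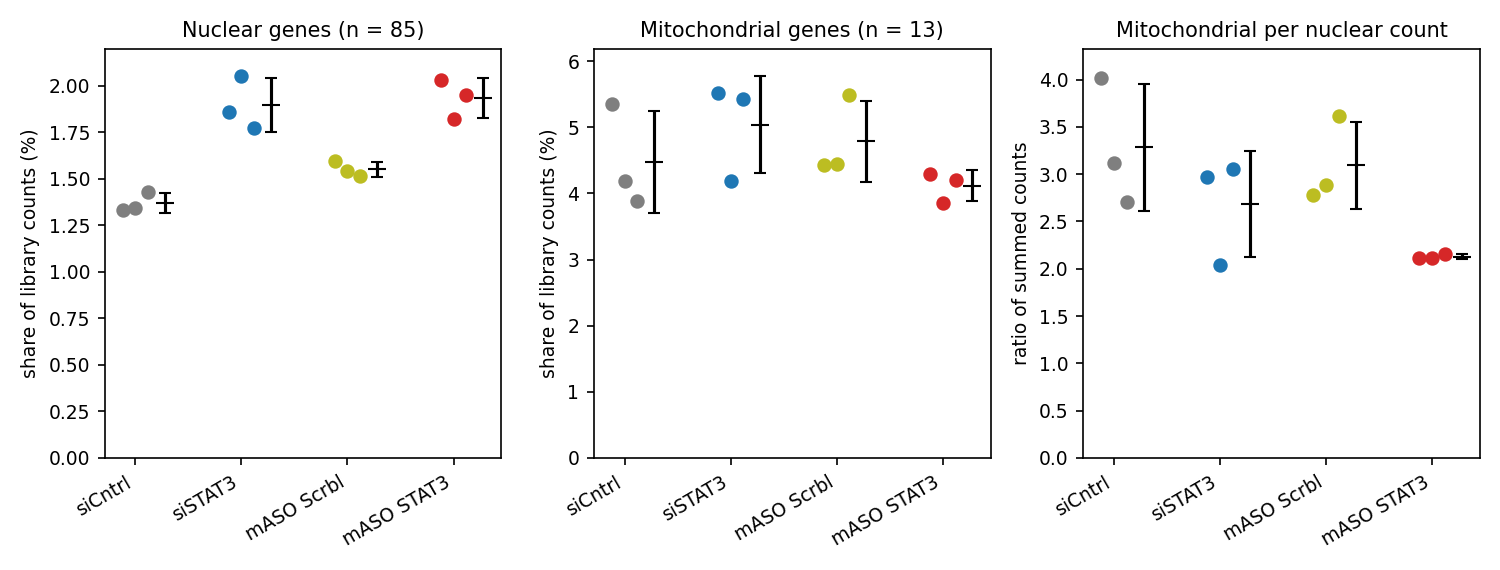
Share of library counts (percent) held by the 85 nuclear and the 13 mitochondrial oxidative phosphorylation genes, and the ratio of mitochondrial to nuclear counts, for the 3 libraries (points) of each of the 4 groups, with mean and SD beside them. The nuclear share is 1.77% to 2.06% in siSTAT3 against 1.33% to 1.43% in siCntrl, while the mitochondrial shares of these groups overlap. The ratio in mASO STAT3 lies between 2.11 and 2.16. Mitochondrial counts come almost wholly from 7 of the 13 genes.

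The ratio of mitochondrial (almost wholly 7 genes) to nuclear counts within a library does not depend on how libraries are scaled. It was 4.02, 3.12 and 2.71 in siCntrl and 2.97, 2.04 and 3.05 in siSTAT3, with group means of 3.28 ± 0.668 and 2.69 ± 0.563 (SD, n = 3). The siRNA groups overlapped. It was 2.78, 2.88 and 3.62 in mASO Scrbl and 2.11, 2.11 and 2.16 in mASO STAT3, with means of 3.09 ± 0.459 and 2.13 ± 0.0247 (SD, n = 3). In the mASO arm the groups did not overlap, and the siSTAT3 library with the highest nuclear share, replicate 2, had the lowest ratio of its group.

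Gene by gene, 74 of 81 tested nuclear genes were higher in siSTAT3 than in siCntrl, 1 was lower and 6 were not called. The background share of genes called higher in this comparison was 22.4% of all genes tested, and 23.4% were called lower. In the mASO arm 75 of 81 were higher, 1 was lower and 5 were not called, beside 21.3% of all genes called higher and 22.5% called lower. The 74 genes called higher in the siRNA arm were all called higher in the mASO arm too. In 76 of 81 tested genes all 3 siSTAT3 libraries lay above all 3 siCntrl libraries, which 25.5% of all genes did, and in 77 all mASO STAT3 libraries lay above all mASO Scrbl libraries, against 27.2% of all genes. The median log2 fold change of the 81 genes was 0.98 in the siRNA arm and 0.95 in the mASO arm, where the medians of all tested genes were −0.04 and −0.05. Under scaling by library totals alone, 52 of the 74 and 43 of the 75 genes were still called higher, and 71 of each kept a positive sign.

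**Figure D2:**
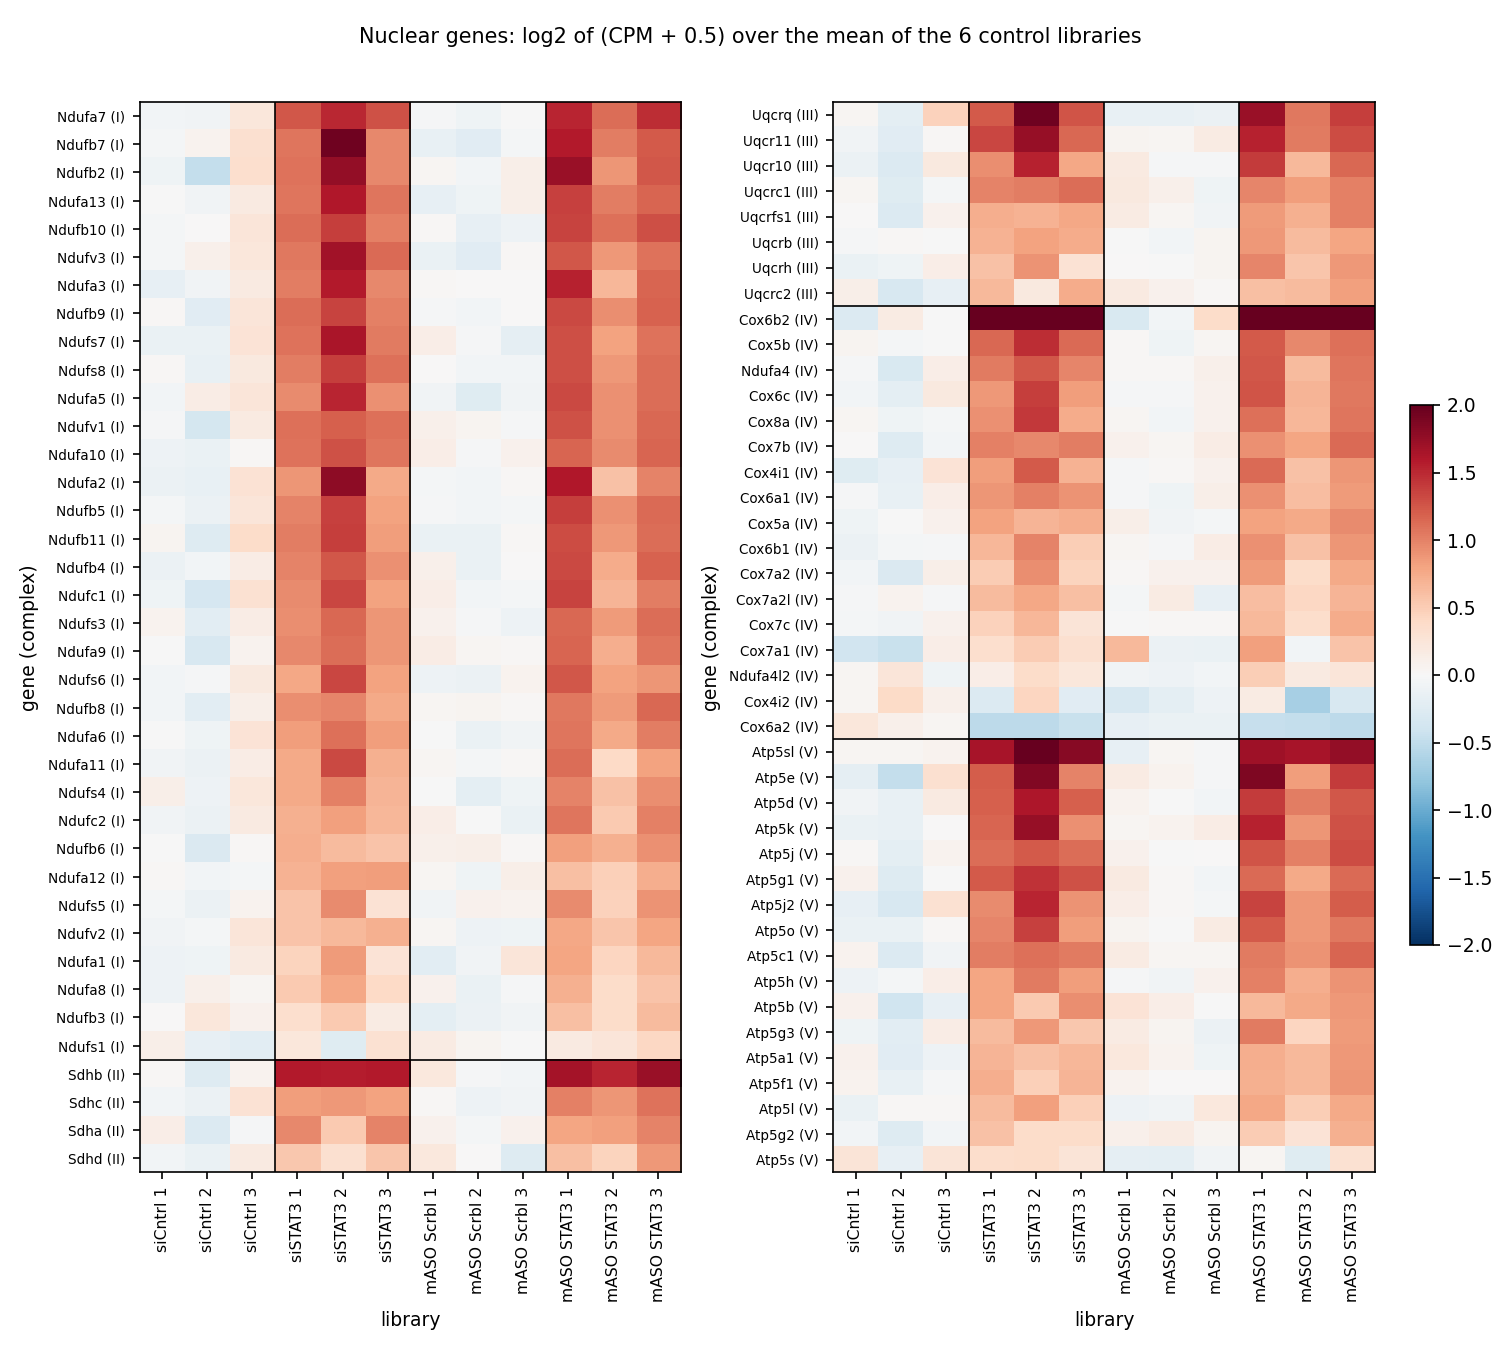
Each row is a nuclear gene with its complex in parentheses and each column 1 of the 12 libraries. Colour gives log2 of (CPM + 0.5) over the mean of the 6 control libraries, limited to the range from −2 to 2, and rows are ordered within a complex by the change. Nearly all rows are red in the 6 libraries labelled STAT3, siSTAT3 replicate 2 is the darkest column for many small subunits, and Cox6b2, Sdhb and Atp5sl are the darkest rows.

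Complex I, the NADH dehydrogenase through which most electrons enter the chain, had 33 of 35 tested nuclear genes higher in the siRNA arm and 34 of 35 in the mASO arm, with median log2 fold changes of 1.04 in each. Among its accessory subunits, Ndufa7 stood at 62.9, 62.8 and 77 CPM in siCntrl and 156, 187 and 159 CPM in siSTAT3. It stood at 64.3, 62.1 and 65.1 CPM in mASO Scrbl and 190.05, 144 and 184 CPM in mASO STAT3. The groups did not overlap in either arm, and Ndufa7 rose by 1.31 ± 0.14 (log2 ± SE, edgeR adjusted p = 7.33e-06) and 1.43 ± 0.14 (edgeR adjusted p = 3.22e-06). Ndufb7 was at 86.1, 93.9 and 111 CPM in siCntrl, 188, 346 and 174 CPM in siSTAT3, 80.02, 76.3 and 86.5 CPM in mASO Scrbl and 268, 181 and 209 CPM in mASO STAT3. Replicate 2 of siSTAT3 stood well above its group for this short mRNA, and the changes were 1.28 ± 0.23 and 1.44 ± 0.23 (edgeR adjusted p = 0.000582 and 0.00026). Ndufb2, one of the less abundant subunit genes of the complex at 13.7, 10.3 and 18.3 CPM in siCntrl and 31.5, 50.4 and 28.7 CPM in siSTAT3, changed by 1.38 ± 0.26 and 1.32 ± 0.26. Ndufb10 changed by 1.11 ± 0.14 and 1.33 ± 0.14.

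Core subunits of complex I made from nuclear genes carry the flavin and the iron-sulfur clusters. Differences between genes were not tested for this or any other complex. Ndufs7, Ndufs8 and Ndufv1 changed by 1.26, 1.15 and 1.18 on the log2 scale in the siRNA arm and by 1.09, 1.14 and 1.07 in the mASO arm. Ndufs3 and Ndufv2 changed by 0.98 and 0.60, and by 1.06 and 0.77, and these genes were called in both arms. Ndufs1, the largest core subunit, was called in neither. It lay at 139.5, 114 and 111 CPM in siCntrl against 150.01, 109 and 158 CPM in siSTAT3, groups that overlap. It lay at 144, 133 and 128 CPM in mASO Scrbl against 145, 152 and 171 CPM in mASO STAT3, which just did not overlap. Its log2 fold changes were 0.19 ± 0.15 and 0.21 ± 0.15 (edgeR adjusted p = 0.319 and 0.289). By library totals it was called lower in the mASO arm (−0.37, edgeR adjusted p = 0.0450). This gene was singled out after its values were seen. Ndufb3, an accessory subunit, was the other complex I gene not called in the siRNA arm (0.24 ± 0.12, edgeR adjusted p = 0.141), and it was called in the mASO arm (0.67 ± 0.13, 0.000739). Among the smallest called changes were those of Ndufa1 (0.54 ± 0.17 and 0.64 ± 0.17), Ndufa8 (0.56 ± 0.14 and 0.58 ± 0.14) and, in the mASO arm, Ndufa12 (0.59 ± 0.11). The siRNA call of Ndufa1 was lost without siCntrl replicate 1 or 2 or siSTAT3 replicate 2.

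Complex II, succinate dehydrogenase, is the only complex with no mitochondrially encoded subunit and also works in the citric acid cycle. All 4 of its genes rose in both arms, and Sdhb, the iron-sulfur subunit, rose most. Sdhb stood at 138, 113 and 143 CPM in siCntrl and 407, 403 and 409 CPM in siSTAT3. It stood at 157, 134 and 131 CPM in mASO Scrbl and 431, 392 and 453 CPM in mASO STAT3. The groups are far apart, and the changes were 1.63 ± 0.13 and 1.60 ± 0.13 on the log2 scale (edgeR adjusted p = 7.24e-07 and 9.28e-07). Sdha, the flavoprotein that oxidises succinate, was at 321, 244 and 288 CPM in siCntrl, 574, 424 and 584 CPM in siSTAT3, 311, 287 and 311 CPM in mASO Scrbl and 506, 518 and 587 CPM in mASO STAT3. It changed by 0.89 ± 0.15 and 0.83 ± 0.15 (edgeR adjusted p = 0.000378 and 0.000698). The membrane anchors Sdhc and Sdhd changed less than Sdhb: Sdhc by 0.79 ± 0.13 and 1.05 ± 0.13 and Sdhd by 0.48 ± 0.16 and 0.65 ± 0.16. Sdhd stood at 268, 256 and 318 CPM in siCntrl and 408, 350.4 and 413 CPM in siSTAT3. Its siRNA call (edgeR adjusted p = 0.0246) was lost without siCntrl replicate 1 or 2 or siSTAT3 replicate 1 or 3.

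Complex III, which passes electrons from coenzyme Q to cytochrome c, had all 8 nuclear genes higher in both arms, with medians of 0.96 and 0.84. The small subunits Uqcr11 and Uqcrq led. Uqcr11 stood at 143, 128 and 154 CPM in siCntrl, 382, 508 and 335 CPM in siSTAT3, 157, 154 and 168 CPM in mASO Scrbl and 441, 309 and 373 CPM in mASO STAT3. It rose by 1.53 ± 0.17 and 1.23 ± 0.17 (edgeR adjusted p = 1.18e-05 and 7.01e-05), with no overlap between groups. Uqcrq was at 226, 192 and 300.3 CPM in siCntrl, 514, 842 and 522 CPM in siSTAT3, 197, 197 and 201 CPM in mASO Scrbl and 726, 456 and 571 CPM in mASO STAT3. It rose by 1.39 ± 0.23 and 1.56 ± 0.23 (edgeR adjusted p = 0.000249 and 0.000104), and siSTAT3 replicate 2 and mASO STAT3 replicate 1 were the high libraries. Uqcr10, another small subunit, changed by 1.18 ± 0.22 and 1.05 ± 0.22. Uqcrc1, a core protein, changed by 1.13 and 0.87, and Uqcrfs1, the Rieske iron-sulfur protein, by 0.79 and 0.81. The smallest changes were in Uqcrb (0.76 and 0.77), Uqcrh (0.63 and 0.79) and the core protein Uqcrc2 (0.66 and 0.59).

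Complex IV, cytochrome c oxidase, passes electrons to oxygen, and several of its subunits have tissue-restricted forms. The 12 widely expressed nuclear subunit genes, Ndufa4 among them, were all higher in both arms, with medians of 0.95 and 0.84. Cox5b stood at 158, 147 and 151 CPM in siCntrl and 336, 419.7 and 333 CPM in siSTAT3, and at 154, 142 and 155 CPM in mASO Scrbl and 356, 295 and 325 CPM in mASO STAT3. This zinc-binding subunit rose by 1.26 ± 0.13 and 1.11 ± 0.13 (edgeR adjusted p = 5.65e-06 and 1.54e-05). Cox4i1, the common form of the largest nuclear subunit, changed by 0.97 ± 0.19 and 0.85 ± 0.19, Ndufa4 by 1.14 ± 0.17 and 0.96 ± 0.17, Cox7b by 1.10 ± 0.13 and 0.86 ± 0.13 and Cox8a by 1.08 ± 0.17 and 0.94 ± 0.17. Cox6a1, Cox6b1 and Cox7a2, the common forms of subunits that also have tissue-restricted forms, changed by 0.94, 0.80 and 0.71 in the siRNA arm and by 0.79, 0.75 and 0.61 in the mASO arm. Cox7c (0.48 and 0.58) and the supercomplex factor Cox7a2l (0.66 and 0.58) changed least, and all were called.

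The tissue-restricted or induced forms of complex IV subunits were at low levels, and Cox6b2 and Cox6a2 were the ones called. Cox6b2, a form of subunit VIb known from testis, stood at 2.6, 3.68 and 3.25 CPM in siCntrl and 14.8, 29.6 and 19.7 CPM in siSTAT3. It stood at 2.54, 3.09 and 4.33 CPM in mASO Scrbl and 19.2, 22.5 and 19.3 CPM in mASO STAT3. Its rises of 2.75 ± 0.26 and 2.62 ± 0.26 were the highest among the nuclear genes in both arms (edgeR adjusted p = 2.92e-06 and 4.02e-06), while its level stayed well under that of Cox6b1, at 342, 428 and 301 CPM in siSTAT3. The 2 mRNAs are of similar length, 585 bases for Cox6b2 and 618 for Cox6b1. Cox6a2, the heart and skeletal muscle form of subunit VIa, was the only nuclear gene called lower in either arm, on very few counts. It had 62 counts over the 3 siCntrl libraries and 1 over siSTAT3, a ratio of 0.0288 (95% exact counting interval 0.000717 to 0.166) after scaling, and 38 over the mASO Scrbl libraries with 2 over mASO STAT3 (0.0905, 0.0106 to 0.350). The intervals cover counting error only. Cox6a2 overlaps Itgad on the opposite strand in GENCODE M21, and the sources used here do not say whether counting used strand, so its reads and those of Itgad may not be separate. A filter of 1 CPM in 3 libraries removes Cox6a2, which leaves no nuclear gene called lower in either arm.

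Cox7a1, another muscle form, stood at 1.41, 1.34 and 2.23 CPM in siCntrl and 2.65, 3.03 and 2.61 CPM in siSTAT3 and was not called (0.74 ± 0.35, edgeR adjusted p = 0.0981; 0.37 ± 0.34, 0.411 in the mASO arm). Cox4i2, known as a hypoxia-responsive form in lung, lay between 0.114 and 0.823 CPM over the 12 libraries, with log2 fold changes of −0.32 ± 0.57 and −0.10 ± 0.58 (edgeR adjusted p = 0.677 and 0.911). Ndufa4l2, a HIF-induced relative of Ndufa4, lay between 0.751 and 1.40 CPM, with log2 fold changes of 0.26 ± 0.31 and 0.58 ± 0.31 (edgeR adjusted p = 0.521 and 0.145). Cox7b2 and Cox8b had at most 1 and 5 counts in a library. The striated muscle and brown fat markers were near 0 as well, at a summed 0.276 to 3.23 CPM over 12 genes, of which 2 were tested and 1, Cidea, was called lower in each arm. Ckm, the muscle creatine kinase, was at 0 in siSTAT3, mASO Scrbl and mASO STAT3.

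Complex V, ATP synthase, had 16 of 17 tested nuclear genes higher in both arms, with medians of 1.14 and 0.96. The 17 include Atp5s and Atp5sl, which are not core subunits. The catalytic F1 head is built from Atp5a1, Atp5b, Atp5c1, Atp5d and Atp5e, and all 5 rose in both arms. Atp5b is the catalytic beta subunit and, in the controls, the nuclear gene with the highest level per annotated length among those described here. It stood at 1153, 819 and 967 CPM in siCntrl and 1869.9, 1561 and 2069.8 CPM in siSTAT3. It stood at 1305, 1183 and 1076 CPM in mASO Scrbl and 1697, 1830.4 and 1988 CPM in mASO STAT3, and rose by 0.90 ± 0.17 and 0.63 ± 0.17 (edgeR adjusted p = 0.000598 and 0.00708). The stalk subunits moved further than alpha and beta: Atp5d by 1.36 ± 0.16 and 1.23 ± 0.16 and Atp5e by 1.48 ± 0.28 and 1.36 ± 0.28, against 0.72 ± 0.14 and 0.68 ± 0.14 for Atp5a1. Atp5e was at 100.1, 81.5 and 142 CPM in siCntrl and 264, 412 and 227 CPM in siSTAT3, with replicate 2 high.

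Atp5g1, Atp5g2 and Atp5g3 code for the same mature c subunit of the membrane ring. They changed by 1.38 ± 0.14, 0.56 ± 0.13 and 0.73 ± 0.17 in the siRNA arm and by 0.97 ± 0.14, 0.40 ± 0.13 and 0.75 ± 0.17 in the mASO arm. Atp5g3 had the highest level of the 3 per kilobase of mRNA, 555 CPM in the controls against 58.9 for Atp5g2 and 19.9 for Atp5g1. The mASO call of Atp5g2 (edgeR adjusted p = 0.0215) was lost without mASO Scrbl replicate 1 or 3 or mASO STAT3 replicate 1 or 3. Among the other membrane-sector genes, Atp5k rose by 1.42 ± 0.20 and 1.17 ± 0.20, and Atp5f1 (0.67 and 0.72) and Atp5l (0.68 and 0.67) were among the smallest changes. Atp5sl, which is not a core subunit, had the highest change of all genes placed here with complex V by symbol. Atp5sl stood at 18.6, 18.5 and 19 CPM in siCntrl and 58.1, 87.6 and 65.2 CPM in siSTAT3. In the mASO groups it stood at 16.1, 18.7 and 17.8 CPM (Scrbl) and 59.7, 58.1 and 62.6 CPM (STAT3). Its product has been linked to complex I assembly, not to ATP synthase, and it rose by 1.91 ± 0.15 and 1.78 ± 0.15 (edgeR adjusted p = 4.23e-07 and 7.77e-07). Atp5s, coupling factor B, stood at 8.56, 6.26 and 8.55 CPM in siCntrl and 9.18, 9.23 and 8.57 CPM in siSTAT3 and was not called (0.21 ± 0.18 and 0.21 ± 0.18, edgeR adjusted p = 0.38 and 0.387).

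**Figure D3:**
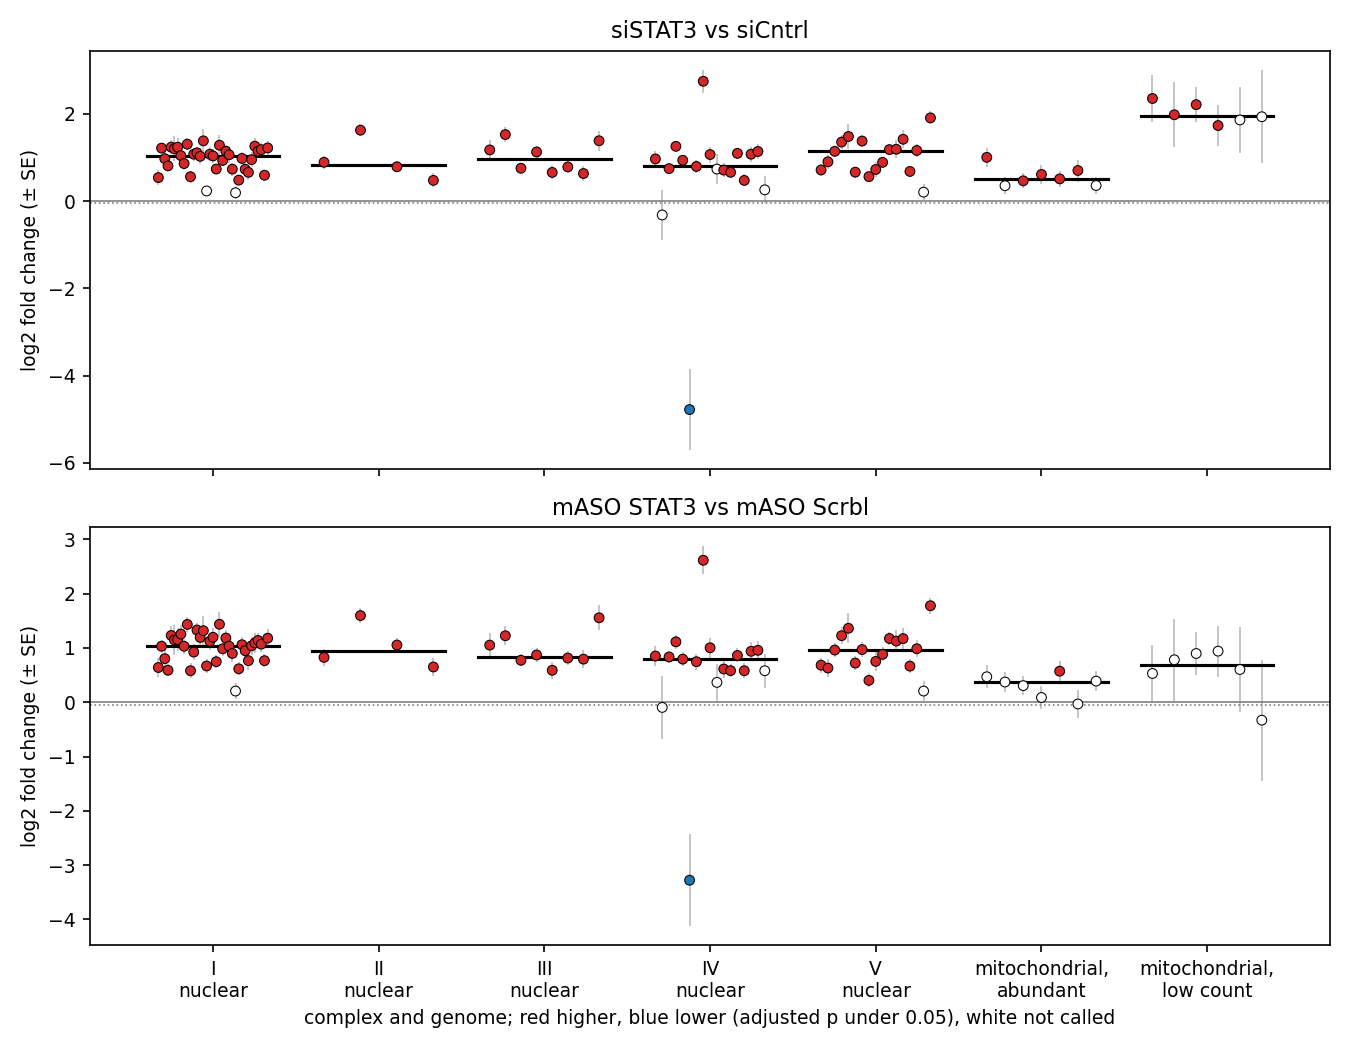
Log2 fold change with SE of each tested oxidative phosphorylation gene by complex and genome, above for siSTAT3 against siCntrl and below for mASO STAT3 against mASO Scrbl. Red and blue points were called higher and lower, white points were not called, thick bars are medians and the dotted line is the median of all genes tested. The nuclear medians of complexes I to V lie between 0.79 and 1.14, the abundant mitochondrial genes at 0.51 and 0.37, and Cox6a2 is the blue point.

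Promoters are shown for 5 of these genes. The factors NRF1, NRF2/GABP (an ETS factor) and YY1 are known to bind promoters of respiratory genes. A RefSeq promoter (GRCm38.p6, 250 bases before to 50 after the start) was found for 69 of the 85 nuclear genes. The motifs searched on both strands were GCATGCGC for NRF1, CCGGAAGT for ETS factors and AAGATGGCG for YY1. The NRF1 letters were in 10 of 69 promoters (14.5%) and 3.05% of all 27025 genes with a promoter, the ETS letters in 5 (7.25%) and 4.31%, and the YY1 letters in 8 (11.6%) and 1.64%. At least 1 of the 3 was in 22 of 69 (31.9%) and in 8.47% of all. The 5 promoters shown all hold at least 1 of the 3, while 47 of the 69 genes hold none. Motifs are in capitals, each promoter is read 5′ to 3′ on the strand of its gene, and Atp5k has 2 overlapping NRF1 matches that form a palindrome. The windows are chr10:80249199-80249498 (plus strand) for Ndufs7, chr4:140961021-140961320 (plus) for Sdhb, chr10:80406772-80407071 (minus) for Uqcr11, chr19:7217567-7217866 (minus) for Cox8a and chr5:108434350-108434649 (minus) for Atp5k.
Ndufs7: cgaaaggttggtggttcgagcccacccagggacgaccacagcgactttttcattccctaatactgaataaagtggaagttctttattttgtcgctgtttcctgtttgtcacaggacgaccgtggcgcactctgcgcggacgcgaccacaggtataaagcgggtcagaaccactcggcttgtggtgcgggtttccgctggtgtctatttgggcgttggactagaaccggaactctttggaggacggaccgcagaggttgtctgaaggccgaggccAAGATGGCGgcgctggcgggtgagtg
Sdhb: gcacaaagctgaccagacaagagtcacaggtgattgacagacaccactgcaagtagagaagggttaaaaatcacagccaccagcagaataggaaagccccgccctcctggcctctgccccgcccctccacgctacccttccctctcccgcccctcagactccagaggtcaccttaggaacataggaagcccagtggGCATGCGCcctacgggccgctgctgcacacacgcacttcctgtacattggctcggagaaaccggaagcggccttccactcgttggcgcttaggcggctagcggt
Uqcr11: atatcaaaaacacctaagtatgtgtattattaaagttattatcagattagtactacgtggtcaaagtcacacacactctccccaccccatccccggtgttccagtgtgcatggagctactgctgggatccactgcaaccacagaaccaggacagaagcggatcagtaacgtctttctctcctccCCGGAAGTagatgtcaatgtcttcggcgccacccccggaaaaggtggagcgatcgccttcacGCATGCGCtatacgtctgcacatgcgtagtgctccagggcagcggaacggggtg
Cox8a: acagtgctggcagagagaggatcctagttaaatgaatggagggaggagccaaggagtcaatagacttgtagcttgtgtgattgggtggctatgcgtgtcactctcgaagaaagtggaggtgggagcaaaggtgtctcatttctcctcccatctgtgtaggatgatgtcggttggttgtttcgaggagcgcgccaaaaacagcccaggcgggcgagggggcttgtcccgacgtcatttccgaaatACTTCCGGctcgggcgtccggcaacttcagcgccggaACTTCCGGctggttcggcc
Atp5k: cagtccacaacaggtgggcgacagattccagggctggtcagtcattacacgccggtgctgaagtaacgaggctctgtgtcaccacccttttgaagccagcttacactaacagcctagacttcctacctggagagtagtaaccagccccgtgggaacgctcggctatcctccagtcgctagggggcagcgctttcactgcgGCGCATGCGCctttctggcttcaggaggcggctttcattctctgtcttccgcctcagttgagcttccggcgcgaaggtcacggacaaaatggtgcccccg
Ndufs7 shows the YY1 letters, Sdhb the NRF1 letters, Uqcr11 both ETS and NRF1 letters, and Cox8a the ETS letters at 2 places on the reverse strand. The 22 genes with a motif were all called higher in both arms, with median log2 fold changes of 1.02 and 0.99. Of the 45 tested genes with a promoter and no motif, 42 were called higher in the siRNA arm and 43 in the mASO arm. Their medians were 1.04 and 0.96. A match describes letters in this window and shows no binding.

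Calls among the mitochondrially encoded genes were few in the mASO arm, and in both arms most of them rested on single libraries. In the siRNA arm 9 of 13 were called higher and 4 were not called, beside 22.4% of all genes tested called higher. In the mASO arm 1 of 13 was called higher, beside 21.3% of all genes tested. None of the 13 was called lower in either arm. The 13 fell into a group of 7 with 68107 to 1283774 counts per library and a group of 6 with 0 to 449, a division made after the values were seen. Of the 7 abundant genes 5 rose in the siRNA arm, with a median of 0.51, and 1 rose in the mASO arm, with a median of 0.37. Under scaling by library totals alone these medians were 0.02 and −0.21, and the mASO calls were 0 higher and 2 lower, so the direction of the abundant mitochondrial genes depends on the scaling. Without siCntrl replicate 2 or 3 or siSTAT3 replicate 1 or 3 only 1 of the 7 was called in the siRNA arm, and 6 were called without siCntrl replicate 1.

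mt-Co1, the catalytic subunit of complex IV and the most abundant of the 13 by counts, stood at 15578, 9937 and 10102 CPM in siCntrl and 26373, 18079.5 and 27038 CPM in siSTAT3. It stood at 12673, 12021 and 14597 CPM in mASO Scrbl and 19031, 16468 and 18910.1 CPM in mASO STAT3. All STAT3 libraries lay above their controls. It rose by 1.01 ± 0.22 in the siRNA arm (edgeR adjusted p = 0.00193) and was not called in the mASO arm (0.47 ± 0.21, 0.0917). There DESeq2 and a fit of only the libraries compared did call it higher, while library totals gave −0.11. mt-Cytb, the only mitochondrial subunit of complex III, was at 12352, 8391 and 8808 CPM in siCntrl, 12384, 13110 and 12308 CPM in siSTAT3, 8438, 8432 and 10718 CPM in mASO Scrbl and 12875, 9986 and 12867 CPM in mASO STAT3. The groups overlapped in both arms, and mt-Cytb was called in neither (0.36 ± 0.19 and 0.37 ± 0.19, edgeR adjusted p = 0.142 and 0.127; −0.13 and −0.21 by library totals), except in the siRNA arm without siCntrl replicate 1.

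The abundant complex I genes of the mitochondrial genome code for its membrane arm. mt-Nd4 was the only mitochondrial gene called in both arms, at 3993, 3165 and 3737 CPM in siCntrl, 5035, 5225 and 5276 CPM in siSTAT3, 2621, 2727 and 3797 CPM in mASO Scrbl and 5065, 3679 and 4853 CPM in mASO STAT3. It rose by 0.51 ± 0.18 and 0.57 ± 0.18 (edgeR adjusted p = 0.035 and 0.0216; 0.02 and −0.02 by library totals, not called). Leaving out siCntrl replicate 2 or 3 or any siSTAT3 library ended the first call, and leaving out mASO Scrbl replicate 1 or 2 or mASO STAT3 replicate 1 or 3 ended the second. mt-Nd1 stood at 6516, 5352 and 5314 CPM in siCntrl and 8554, 6805 and 8403 CPM in siSTAT3, with no overlap, and at 5151, 4691 and 6214 and 7239, 5687 and 6931 CPM in the mASO groups, which overlapped. mt-Nd2 stood at 4637, 3138 and 3243 CPM in siCntrl and 6082, 4083 and 6697 CPM in siSTAT3, and at 3127, 3432 and 4208 and 3983, 3232 and 4229 CPM in the mASO groups. mt-Nd5 stood at 3477, 1849 and 1919.8 CPM in siCntrl and 4729.9, 2676 and 4395 CPM in siSTAT3, and at 2469, 2465 and 2854 and 2651, 2308 and 2661 CPM in the mASO groups. For mt-Nd2 and mt-Nd5, siCntrl replicate 1 was higher than siSTAT3 replicate 2, so the siRNA groups overlapped, as did the mASO groups.

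The siRNA changes of mt-Nd1, mt-Nd2 and mt-Nd5 were 0.47 ± 0.17, 0.61 ± 0.22 and 0.70 ± 0.25 (edgeR adjusted p = 0.0416, 0.0345 and 0.0349), and each call was lost without siCntrl replicate 2 or 3 or siSTAT3 replicate 1 or 3. By library totals they were −0.02, 0.13 and 0.23 and not called. In the mASO arm the 3 genes stood at 0.31 ± 0.17, 0.09 ± 0.22 and −0.03 ± 0.25 (edgeR adjusted p = 0.172, 0.772 and 0.932), and by library totals at −0.28, −0.50 and −0.61, where mt-Nd2 and mt-Nd5 were called lower. mt-Nd6, the only one of the 13 genes on the other strand of the mitochondrial DNA, stood at 1836, 1511 and 1644 CPM in siCntrl and 2462, 1752 and 2191 CPM in siSTAT3 and was called in neither arm (0.36 ± 0.19 and 0.39 ± 0.19, edgeR adjusted p = 0.13 and 0.105; −0.13 and −0.20 by library totals), except in the mASO arm without mASO STAT3 replicate 2. Per kilobase of annotated mRNA the abundant mitochondrial genes had levels of 1374 CPM (mt-Nd5) to 8324 CPM (mt-Cytb) in the controls. The highest nuclear gene by this measure, Atp5b, had 566.

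The other 6 mitochondrial genes, mt-Atp6, mt-Atp8, mt-Co2, mt-Co3, mt-Nd3 and mt-Nd4l, had 0 to 449 counts per library although the same genome codes for them, so their values are uncertain. For 5 of them nearly every 50-base window of the transcript is also present in an annotated nuclear copy (GENCODE M21): 100% of windows for mt-Co2, 99.9% for mt-Co3, 99.5% for mt-Atp6, 98.8% for mt-Nd4l and 98.0% for mt-Nd3. The share was 62.2% for mt-Nd4, 51.1% for mt-Co1, 8.19% for mt-Nd2 and 7.61% for mt-Nd5, and 0 for mt-Cytb, mt-Nd1, mt-Nd6 and mt-Atp8. The closest copies are unprocessed pseudogenes side by side on the minus strand of chromosome 1 (GRCm38): Gm10222 at chr1:24612407-24612700, Gm28438 at chr1:24612775-24613119, Gm28437 at chr1:24613189-24613971, Gm10925 at chr1:24613974-24614651 and Gm28661 at chr1:24614885-24615565. The stretches printed to make this visible are bases 1 to 60 of mt-Nd3 (chrM:9459-9806) with the same stretch of Gm28438, the base that differs in capitals, and bases 311 to 370 of mt-Co2 (chrM:7013-7696), which read the same in Gm28661.
mt-Nd3: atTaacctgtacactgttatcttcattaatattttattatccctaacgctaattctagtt
Gm28438: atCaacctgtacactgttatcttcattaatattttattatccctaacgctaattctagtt
mt-Co2: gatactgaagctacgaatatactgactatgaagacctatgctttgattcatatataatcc
Over the aligned length 1 of 345 bases differed for mt-Nd3 and 0 of 681 for mt-Co2, 0 of 783 for mt-Co3, 0 of 678 for mt-Atp6 and 0 of 294 for mt-Nd4l. Gm10222 had 10 to 45 counts per library, and counts of the other 4 copies were not analysed here. mt-Atp8 was low with no window shared with an annotated nuclear transcript. Nuclear sequence outside annotated transcripts was not searched, among it the stretch between Gm10925 and Gm28661. A nuclear copy of mt-Atp8 there would not have been seen. Whether reads that match both genomes were left out when the authors counted was not tested.

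**Figure D4:**
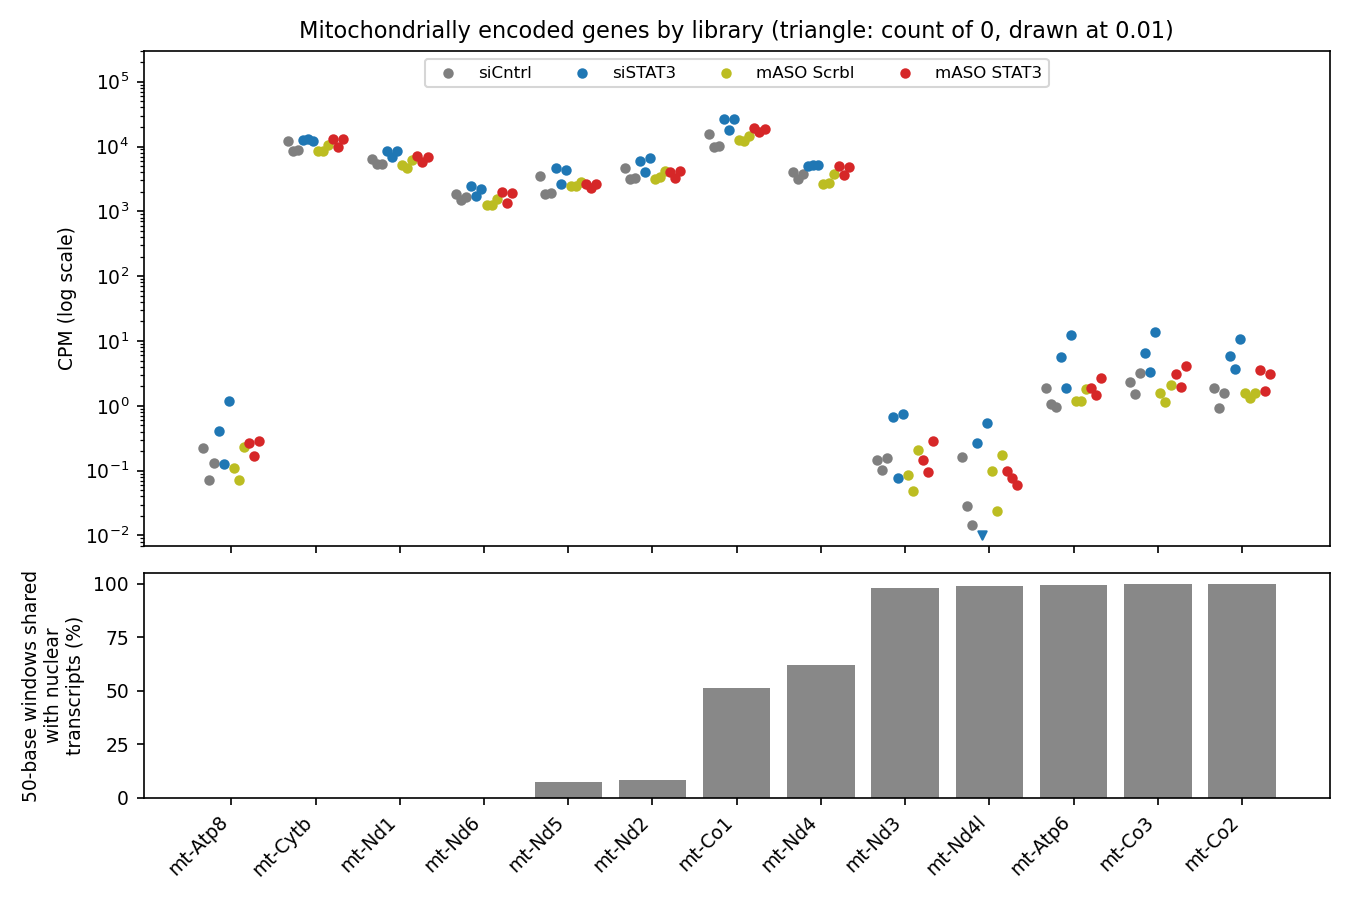
Above, CPM on a log scale of the 13 mitochondrial genes in the 12 libraries, coloured by group, with a triangle at 0.01 for a count of 0; below, the percent of each transcript's 50-base windows that also occur in an annotated nuclear transcript. Genes are ordered by that percent. The 5 genes at 98.0% or more lie at or under 13.8 CPM in every library, mt-Atp8 is as low at 0%, and the 7 others lie at 1233 CPM or higher. Nuclear sequence outside annotated transcripts was not searched.

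Within these limits, mt-Co2 stood at 1.85, 0.933 and 1.58 CPM in siCntrl and 5.94, 3.7 and 10.7 CPM in siSTAT3, with no overlap, and rose by 2.21 ± 0.40 (edgeR adjusted p = 0.000537). mt-Co3 stood at 2.32, 1.52 and 3.25 CPM in siCntrl and 6.57, 3.29 and 13.8 CPM in siSTAT3 and rose by 1.73 ± 0.47 (edgeR adjusted p = 0.00895), a call lost without siSTAT3 replicate 3. In both genes siSTAT3 replicate 3 was the highest library. mt-Atp6, a proton channel subunit of complex V, stood at 1.88, 1.05 and 0.948 CPM in siCntrl and 5.61, 1.88 and 12.4 CPM in siSTAT3, which overlapped, and rose by 2.36 ± 0.54 (edgeR adjusted p = 0.0033). mt-Atp8, with 5 to 39 counts per library, rose by 1.98 ± 0.75 (edgeR adjusted p = 0.0433), and siCntrl replicate 2 or 3 or siSTAT3 replicate 1 or 3, left out, ended that call. mt-Nd3 and mt-Nd4l were not called (1.86 ± 0.76 and 1.94 ± 1.07, edgeR adjusted p = 0.0596 and 0.154), except without siSTAT3 replicate 2. None of the 6 was called in the mASO arm by edgeR as fitted throughout, where 1 had an unadjusted p under 0.05; their changes ran from −0.33 to 0.94, and mt-Co2 was called by DESeq2, without mASO STAT3 replicate 2 and, with mt-Co3, in fits with a replicate block or only the libraries compared.

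The mitochondrial ribosomal RNAs, which are not in the set, did not overlap between groups in either arm. mt-Rnr1 was at 516, 450.4 and 981 CPM in siCntrl and 1637, 2061 and 1811 CPM in siSTAT3. It was at 437, 459 and 559.9 CPM in mASO Scrbl and 1868, 988 and 1226 CPM in mASO STAT3. mt-Rnr2 was at 439.7, 383 and 913 CPM in siCntrl, 2319, 2641 and 2159 CPM in siSTAT3, 435, 482 and 515 CPM in mASO Scrbl and 2248, 924 and 1423 CPM in mASO STAT3. In both arms each library labelled STAT3 was above its controls, in libraries made from polyadenylated RNA. Their part in the changes of the mitochondrial coding genes was not tested.

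The change did not differ detectably between the arms for any of the 94 tested genes. edgeR called 0 of 94 for the difference of the arms, beside 0.00636% of all genes, and DESeq2 and limma voom also called 0. At an unadjusted p under 0.05 there were 1 nuclear gene, Ndufb3 (difference, mASO minus siRNA, 0.43 ± 0.18, edgeR adjusted p = 0.66), and 2 mitochondrial ones, mt-Atp6 (−1.82 ± 0.75, 0.66) and mt-Co2 (−1.32 ± 0.55, 0.66). mt-Nd5 (−0.74 ± 0.36, edgeR adjusted p = 0.682) and Atp5g1 (−0.41 ± 0.20, 0.686) came next. The median difference was −0.02 over the nuclear genes, −0.16 over the 7 abundant mitochondrial genes and −1.29 over the 6 low-count ones. The 2 control groups were also not told apart by single genes. mASO Scrbl against siCntrl had 0 of 94 genes called by edgeR, DESeq2 or limma voom, beside 0.0127% of all genes. At an unadjusted p under 0.05 there were 0, and medians were 0.02 (nuclear) and −0.04 (mitochondrial). The smallest p was that of Ndufb3 (−0.24 ± 0.12, edgeR adjusted p = 0.651). The summed nuclear share of library counts did separate the controls, at 1.33 to 1.43% in siCntrl and 1.52 to 1.59% in mASO Scrbl. In TMM-scaled CPM the nuclear sums overlapped (10681 to 12840 in siCntrl and 12141 to 12871 in mASO Scrbl).

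Other genes of the respiratory chain moved in both directions. For these and the lists below, the background in the siRNA arm was 22.4% of all genes tested called higher and 23.4% lower. In the mASO arm it was 21.3% and 22.5%. Of 6 tested subunit genes whose symbols lie outside the rule, 4 were higher and 1 lower in the siRNA arm and 5 higher and 1 lower in the mASO arm. Cyc1, the cytochrome c1 of complex III, rose by 1.17 ± 0.15 and 0.83 ± 0.14, while Cycs, the mobile cytochrome c, fell (−0.69 ± 0.16 and −0.53 ± 0.16, edgeR adjusted p = 0.00324 and 0.0152). Of 43 assembly factors 28 were higher and 1 lower in the siRNA arm and 22 were higher in the mASO arm, with medians of 0.50 in each. Ecsit and Nubpl, both needed to build complex I, rose by 1.33 and 1.14 in the siRNA arm and by 1.11 and 1.33 in the mASO arm. Bcs1l, which inserts the Rieske protein into complex III, rose by 1.06 and 0.71, and the complex IV factor Coa3 was the 1 called lower in the siRNA arm (−0.37 ± 0.14, edgeR adjusted p = 0.045), close to the threshold. Of 13 coenzyme Q synthesis genes 8 were higher and 1 lower in the siRNA arm, against 6 higher and 1 lower in the mASO arm, led by Adck3 (2.47 and 2.996) and Coq10a (1.89 ± 0.19 and 1.84 ± 0.19), with Pdss1 lower (−0.89 and −0.89).

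Of the genes that transcribe, process and replicate the mitochondrial genome, 15 of 24 were higher and 1 lower in the siRNA arm, with a median of 0.56, and 9 of 24 higher and 1 lower in the mASO arm, with a median of 0.28. Hsd17b10, a subunit of mitochondrial RNase P, rose by 1.65 ± 0.12 and 1.55 ± 0.12, and Peo1, the Twinkle helicase, by 1.41 ± 0.16 and 1.59 ± 0.16. Pnpt1, a mitochondrial RNA-degrading enzyme, fell (−0.93 ± 0.21 and −1.27 ± 0.21, edgeR adjusted p = 0.00292 and 0.000317). Tfam, which packages and transcribes mitochondrial DNA, was not called (0.31 ± 0.13 and 0.10 ± 0.13, edgeR adjusted p = 0.0614 and 0.564). Of 77 mitochondrial ribosomal protein genes 31 were higher and 3 lower in the siRNA arm, against 31 higher and 6 lower in the mASO arm, with medians of 0.28 and 0.31.

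Of 13 nuclear regulators of mitochondrial genes 2 were higher and 2 lower in the siRNA arm, beside 22.4% and 23.4% of all genes tested. In the mASO arm 3 were higher and 2 lower, beside 21.3% and 22.5%. The counts for this list are near those background shares. The coactivator Ppargc1b rose by 2.29 ± 0.29 and 0.98 ± 0.28 and the receptor Esrra by 0.80 ± 0.14 and 0.37 ± 0.14, and the related Esrrg stood at 2.37 ± 0.94 in the siRNA arm, not called, and 3.46 ± 0.87 in the mASO arm, called (edgeR adjusted p = 0.054 and 0.00564). Gabpb1, a subunit of the ETS factor named above, fell (−0.82 ± 0.18 and −0.98 ± 0.18, edgeR adjusted p = 0.0023 and 0.000714), as did Hif1a (−0.65 ± 0.24 and −0.88 ± 0.24, 0.0382 and 0.00882). Nrf1 (0.37 ± 0.24 and 0.57 ± 0.24) and Ppargc1a (0.12 ± 0.45 and 0.68 ± 0.45) were not called. The citric acid cycle, which supplies NADH and succinate, had 12 of 18 genes higher and none lower in the siRNA arm and 11 of 18 higher and none lower in the mASO arm, led by Idh2 (1.55 ± 0.15 and 1.54 ± 0.15) and Suclg2 (1.44 ± 0.13 and 1.38 ± 0.13). Among 10 carriers and uncouplers 4 were higher and 4 lower in the siRNA arm, against 4 higher and 3 lower in the mASO arm: the dicarboxylate carrier Slc25a10 rose by 1.91 ± 0.20 and 2.04 ± 0.20, and the ADP/ATP carrier Slc25a4 (−1.68 ± 0.17 and −1.36 ± 0.17) and the uncoupling protein Ucp2 (−2.03 ± 0.24 and −1.54 ± 0.24) fell.

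Cell type markers moved with the groups. Their calls are to be read beside the background of 22.4% of all genes tested higher and 23.4% lower in the siRNA arm. In the mASO arm the background was 21.3% and 22.5%. Hepatocyte markers were higher in 6 of 11 genes in the siRNA arm and 8 of 11 in the mASO arm and lower in none, with medians of 0.86 and 0.997, close to those of the nuclear oxidative phosphorylation genes. Their summed level ran from 66707 to 110799 CPM in siCntrl against 143635 to 158792 CPM in siSTAT3. In the mASO arm it ran from 66751 to 98775 CPM in the Scrbl group and from 129643 to 167765 CPM in the STAT3 group, again without overlap. Markers of other liver cells were mostly lower or not called. Stellate cell markers were lower in 8 of 10 genes and higher in 1 in the siRNA arm, and lower in 6 and higher in 2 in the mASO arm, with Reln and, in the mASO arm, Lrat as the higher ones (summed level 1165 to 1543 CPM in siCntrl with 267 to 403 CPM in siSTAT3, and 849.8 to 1737 CPM in the Scrbl group with 391 to 481 CPM in the mASO STAT3 group). Cholangiocyte markers were lower in 4 of 5 and 3 of 5 genes (summed 539.8 to 1376 and 581 to 1322 CPM in siCntrl and mASO Scrbl, 81.7 to 132 and 67.8 to 93.4 in siSTAT3 and mASO STAT3). Macrophage markers were lower in 4 and higher in 1 of 9 genes in the siRNA arm, against 3 lower and 2 higher in the mASO arm, and endothelial markers lower in 4 of 7, and lower in 3 and higher in 1. The sums of both lists overlapped between groups, at 229 to 491 CPM for macrophage and 98.5 to 177 CPM for endothelial markers over the 12 libraries. Lymphocyte markers were called higher in 1 and lower in 1 of 8 genes in the siRNA arm, and higher in 2 in the mASO arm. Their sum overlapped in the siRNA arm but not in the mASO arm (3.43 to 4.44 CPM in mASO Scrbl, 6.40 to 8.74 in mASO STAT3). Red blood cell markers, at most 237 CPM in sum, were higher in 1 of 5 genes in the siRNA arm and not called in the mASO arm. Their sum overlapped in the mASO arm but not in the siRNA arm (77.9 to 156 CPM in siCntrl, 175 to 216 in siSTAT3). No defining marker of these cell types except those of striated muscle and brown fat was at 0 in a whole group. The part of the cell make-up in the rise of the nuclear genes was not tested.

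Transcript length also moved with the groups and with single libraries. Each length is that of 1 annotated transcript per gene, the longest where several ranked equally. The expressed form was not determined, so the bins and correlations below hold for annotated lengths only. Among all tested genes with an mRNA under 800 bases (1057 genes) the medians were 0.41 (siRNA arm) and 0.39 (mASO arm), and they were −0.14 and −0.18 for those over 3000 bases. The nuclear oxidative phosphorylation genes, many of them short, had medians of 0.91 and 0.87 under 800 bases (38 genes). The medians were 1.08 in each arm from 800 to 1500 bases (24 genes) and 0.73 and 0.77 from 1500 to 3000 bases (15 genes). They were 1.38 and 1.05 for the 3 genes over 3000 bases. These 3 are Atp5g1, Ndufb2 and Sdhc, with annotated transcripts of 4715, 4371 and 3171 bases. Across 77 of these genes Spearman's correlation of length with the change was −0.06 in each arm, and across 14855 genes it was −0.17 and −0.20, as a description over genes that share their libraries. Relative to their group means, the 38 short genes had a median deviation of 0.24 in siSTAT3 replicate 2, 0.17 in mASO STAT3 replicate 1 and −0.25 in mASO STAT3 replicate 2. In the same 3 libraries, in that order, the 24 genes from 800 to 1500 bases had 0.20, 0.17 and −0.19. The 15 genes from 1500 to 3000 bases had −0.02, 0.04 and −0.12, and the 3 genes over 3000 bases 0.13, 0.12 and −0.24. Ndufb7 and Atp5e, both under 800 bases, and Uqcrq, whose annotated transcript has 1521 bases, show such a spread in their values. The part of length in the group difference was not tested.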

How the data were processed

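Polyadenylated RNA of BALB/c liver, in 12 libraries, was sequenced from TRIzol extracts with an Illumina stranded kit, per the labels' protocols. What the authors deposited is a single table of raw counts, with gene symbols as rows. TopHat and Cufflinks appear in the submitters' processing notes without a stated role, and build, annotation, counting program and use of strand are not stated in the sources here. Counts were fitted with edgeR 4.0.16 (R 4.3.3) over all 12 libraries: TMM factors, filterByExpr (minimum count 10, minimum total 15; 15720 genes kept, 9820 removed), and quasi-likelihood tests of 4 contrasts with 8 residual degrees of freedom. The genes in the set and the pathway and marker lists were chosen with earlier results of these data known. Genes named singly are, by rule, the largest and smallest called changes of each complex, all complex II, isoform and mitochondrial genes; others are named for their role or were chosen after their values were seen, and 1 gene counted in the totals is not reported here singly. Alternatives used DESeq2 1.42.0, limma 3.58.1, other scalings and filters, a replicate block and omission of each library. Replicate numbers did not pair libraries (residual correlations −0.368 to 0.272), and replicate libraries differed beyond sampling noise (chi-square per degree of freedom 52.7 to 224). The tests were tried on simulated counts. Lengths and mitochondrial copies came from GENCODE M21. A length is that of the best-ranked principal transcript in the annotation, the longest where several ranked equally, and otherwise that with the longest coding part. It may differ from that of the form expressed in these livers.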

Additional observations from a re-analysis of the deposited data

How the results depend on the processing

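For the 34 values that answer a comparison, 428 values under the alternatives stayed close, 56 moved and 3 reversed. A count stayed close if it changed by at most 1.5 times. A median or share ratio did so if it kept its sign and shifted by less than the SD between replicates. For the 109 values of named genes, each counted once per comparison, 1535 alternatives kept both the direction and the side of the threshold. Of the rest, 73 lost the call, 13 gained one and 26 reversed. The counts of nuclear genes called higher held within 1.5 times except that library totals gave 43 in the mASO arm (52 in the siRNA arm). The 1 gene called lower was 0 under the stricter filter in each arm and 2 under library totals in the mASO arm. Mitochondrial genes called higher in the siRNA arm were 4 under library totals and 5 with only the libraries compared, and the abundant ones 1, 3 (no filter) and 2 (only the libraries compared). In the mASO arm they were 0 under library totals (with 2 lower), 3 with DESeq2, 3 with the replicate block and 4 with only the libraries compared, and the abundant ones 0 (2 lower), 2 and 2. The replicate block, run although the numbers do not pair the libraries, changed no other count by over 1.5 times.

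Under library totals, which shift all genes, the siRNA medians were 0.48 (nuclear), 0.52 (mitochondrial; 0.65 under the stricter filter), 0.023 (abundant mitochondrial), and 0.54, 0.35, 0.47, 0.30 and 0.65 for complexes I to V. The mASO medians were 0.36, −0.11, −0.21, and 0.46, 0.36, 0.26, 0.21 and 0.38. The log2 ratios of library shares, 0.47 nuclear and 0.17 mitochondrial (siRNA) and 0.32 and −0.22 (mASO), were 0.96, 0.66, 0.90 and 0.37 in TMM-scaled CPM. Named genes that turned below 0 under library totals were, in the siRNA arm, Cox7c −0.017, mt-Cytb −0.13, mt-Nd1 −0.022, mt-Nd6 −0.13, Ndufa4l2 −0.24 and Sdhd −0.012. The mASO ones were Atp5g2 −0.18, Cox7a1 −0.23, Cox7a2l −0.0029, Cox7c −0.0058, mt-Atp6 −0.061, mt-Co1 −0.11, mt-Cytb −0.21, mt-Nd1 −0.28, mt-Nd2 −0.50, mt-Nd4 −0.016, mt-Nd6 −0.20, Ndufa4l2 −0.00070 and Ndufa8 −0.0029.

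Leaving out 1 library gave 3 to 10 mitochondrial genes higher in the siRNA arm (abundant ones 1 to 6) and 0 to 3 in the mASO arm (0 to 2), a mitochondrial siRNA median of 0.89 to 1.25 and a complex IV siRNA median of 0.77 to 1.01. In the mASO arm these omissions gave −0.81 to 0.32 for Cox4i2 (0.036 without mASO Scrbl replicate 3, 0.32 without mASO STAT3 replicate 2), −0.0046 (without mASO Scrbl replicate 1) to 0.22 for mt-Nd2, −0.79 to 0.34 (without mASO Scrbl replicate 3) for mt-Nd4l, and −0.070 to 0.039 for mt-Nd5 (0.039 without mASO Scrbl replicate 3, 0.032 without mASO STAT3 replicate 2). mt-Nd4l was 0.077 with limma voom. The cause of these changes was not tested beyond what the settings themselves change. With 3 libraries a group, a change missed by the test cannot be read as absent, and the low-count mitochondrial genes and Cox6a2 rest on few reads.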
